A study of Mus musculus with 8 samples.

Results

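The genes described here encode 32 enzymes and regulators that break down branched-chain and other amino acids and use ketone bodies, and they were read in hearts of WT mice and of mice lacking steroid receptor coactivator-2 (SRC-2), a coactivator of nuclear receptors that is encoded by Ncoa2. The members were taken by gene symbol, 32 of the 18194 genes that the array measured, and all 32 were measured. In the SRC-2 KO hearts 31 of the 32 had a higher mean log2 signal than in the WT hearts, and means are compared on the log2 scale throughout. Their median log2 fold change, KO against WT, was 0.36, and 14 of the members had every KO heart above every WT heart. The highest fold changes were those of Bdh1, which interconverts the ketone bodies acetoacetate and 3-hydroxybutyrate (2.92-fold), Kyat3, a kynurenine aminotransferase (1.73-fold), Gpt, an alanine aminotransferase (1.60-fold), Mut, methylmalonyl-CoA mutase (1.56-fold), and Bckdhb, a subunit of the branched-chain ketoacid dehydrogenase (1.54-fold). None of the 32 passed an adjusted p of 0.05 in the common-variance fit, and Mut and Kyat3 passed it in the trended fit. Both fits are explained below.

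Leucine, isoleucine and valine are first transaminated by the mitochondrial aminotransferase Bcat2, and the ketoacids that result are decarboxylated by the branched-chain ketoacid dehydrogenase, a complex that the kinase Bckdk switches off and the phosphatase Ppm1k switches on. The 3 carbon skeletons then follow separate arms. That of leucine ends in acetyl-CoA and acetoacetate, that of valine in propionyl-CoA and that of isoleucine in both acetyl-CoA and propionyl-CoA, which is carboxylated and rearranged to succinyl-CoA for the Krebs cycle. The heart takes up ketone bodies from the blood and oxidises them through Bdh1, Oxct1 and Acat1, and it exchanges amino groups between glutamate, alanine and aspartate through aminotransferases that connect these pathways to the Krebs cycle.

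Promoter sequences are shown for 3 members because the members had higher means together and SRC-2 acts through nuclear receptors, many of which bind variants of the hexamer AGGTCA. The windows run from 250 bases before to 50 bases after an annotated gene start, 5′ to 3′ on the gene's strand, and come from RefSeq on GRCm38.p6. Of the 32 members, 28 had a window in that table, all but Mut, Dbt, Gpt and Acat1. The window of Kyat3, at chr3:142700798-142701097 on the plus strand, is shown for the lowest adjusted p of the members. That of Bdh1, at chr16:31422047-31422346 on the plus strand, is the first of 2 and is shown for the highest fold change. That of Bckdhb, at chr9:83924887-83925186 on the plus strand, is also the first of 2 and holds the hexamer, in capitals, starting 119 bases before the gene start.
Kyat3: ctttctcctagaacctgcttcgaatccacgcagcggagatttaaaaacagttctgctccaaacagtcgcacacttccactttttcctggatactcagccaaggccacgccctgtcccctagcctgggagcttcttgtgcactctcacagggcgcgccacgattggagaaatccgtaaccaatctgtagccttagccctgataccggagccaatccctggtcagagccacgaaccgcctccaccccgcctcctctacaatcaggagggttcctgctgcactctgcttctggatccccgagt
Bdh1: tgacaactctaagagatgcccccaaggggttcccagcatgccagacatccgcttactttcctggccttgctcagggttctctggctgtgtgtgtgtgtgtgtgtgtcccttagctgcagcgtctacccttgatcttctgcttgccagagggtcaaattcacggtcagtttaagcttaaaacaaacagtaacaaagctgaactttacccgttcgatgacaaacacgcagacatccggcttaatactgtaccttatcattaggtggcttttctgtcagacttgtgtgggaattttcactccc
Bckdhb: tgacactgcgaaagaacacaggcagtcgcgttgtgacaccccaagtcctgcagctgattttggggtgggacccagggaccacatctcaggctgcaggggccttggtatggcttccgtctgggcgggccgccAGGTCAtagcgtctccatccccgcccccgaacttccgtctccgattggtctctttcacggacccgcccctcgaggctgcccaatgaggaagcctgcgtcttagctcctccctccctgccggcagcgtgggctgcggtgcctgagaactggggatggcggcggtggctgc
The hexamer AGGTCA, searched on both strands and chosen after the values were seen, was found in a window of 7 of the 28 members (25.0%), namely Aldh6a1, Bckdhb, Got1, Got2, Hibadh, Pcca and Ppm1k, and in windows of 18.1% of all 27025 genes in the table. The longer motif TNAAGGTCA, the extended form that estrogen-related receptors are known to bind and which contains AGGTCA, was found in 0 of the 28 members and in 1.43% of all genes. Direct repeat 1, the paired hexamers bound by PPAR with RXR, was found in 0 of the 28 and in 0.0481% of all genes. The median GC content was 57.3% over the 33 windows of members and 52.7% over all 32851 windows of the table. These are matches of letters in short windows and no binding was measured.

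RNA from whole hearts of male C57B/6Jx129Sv mice fed ad lib was hybridised to Affymetrix Mouse 430 2.0 arrays, with 4 WT and 4 SRC-2 KO hearts and 1 array for each animal. The labels give the age of both genotypes as 10 to 12 weeks and the study's methods a wider range, and the mice were age-matched littermates that had not been stressed. The knockout is present from conception and in all tissues, so the hearts had developed without SRC-2 and the rest of the body lacked it too. Signals are intensities on a linear scale, each array having the same trimmed mean, and each gene was read by its brightest probeset, a group of short probes against a transcript. Values of single hearts are given in the order of replicates 1 to 4.

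The signal of Ncoa2 was 1660.3, 2115, 1827 and 2134 in the WT hearts and 237, 259.6, 267 and 235 in the SRC-2 KO hearts, so the arrays carried the genotype of their labels. The log2 fold change was −2.95 with an adjusted p of 0.00058 in limma's common-variance fit. Pearson's r of log2 signals was 0.975 to 0.984 between WT arrays, 0.972 to 0.980 between KO arrays and 0.954 to 0.980 across genotypes. Of 10 ventricular myocyte markers, all had a higher mean in the KO hearts, none had groups that did not overlap, their median log2 fold change was 0.19, and their summed signal lay between 536015 and 745289 in WT hearts and between 651036 and 845194 in KO hearts. Some of these 10, among them Myh6, Tnnt2 and Actc1, are also expressed in atrial myocytes, so the list is not specific to ventricles. By qPCR the study reports lower Myh6 and Atp2a2 (Serca2), and altered Actc1 and a myosin light chain gene, in KO hearts. On these arrays Myh6 had a log2 fold change of 0.21 and Atp2a2 of 0.19. Whether these markers follow the share of myocytes apart from such changes was not tested. All 8 markers had a lower mean in the KO hearts for atrial myocytes (median log2 fold change −1.64, summed signal 156106 to 259853 for WT and 17214 to 195910 for KO), fibroblasts (−0.72, 82047 to 135347 and 54870 to 85658), endothelial cells (−0.31, 11710 to 14320 and 8723 to 12064) and macrophages (−0.37, 15299 to 19717 and 11760 to 14287). None of the markers of these 5 lists lay under a signal of 50 in both genotypes. Among the atrial markers, Nppa (ANF) had a log2 fold change of −1.09 and Tbx5 of −1.03. By qPCR the study reports increased ANF, the opposite direction, and lower Tbx5 in KO hearts. The cause of the difference for Nppa was not tested. In whole hearts, fewer cells of a type and less RNA per cell cannot be told apart, so a higher share of myocyte RNA and a higher level within myocytes give the same signal. The part of these shifts in the results below was not tested, and the values of the members relative to the ventricular markers are given after them.

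Over all 32 members the log2 fold changes ran from −0.02 for Mccc1 to 1.55 for Bdh1, with 31 above 0, against 46.9% of all genes above 0 and a median of all genes of −0.03. The 14 members whose KO hearts all lay above all WT hearts make up 43.8% of the members, against 3.12% of all genes, and 0 members had all KO hearts below, against 3.72% of all genes. Members are bright genes, 27 of them with a mean signal of 1000 or more over the 8 hearts, and of all 4324 genes of that brightness 59.5% had a log2 fold change above 0 and 7.79% had every KO heart above every WT heart. The members and these branches were chosen with earlier results known, so the shares are a description.

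In the common-variance fit, in which the spread of each gene is drawn toward a single value for all genes, 0 members passed an adjusted p of 0.05 (background 0.0055% of genes toward higher values), with adjusted p-values from 0.294 for Kyat3 to 0.999 for Ivd, and 17 had an unadjusted p under 0.05 with a higher mean (background 3.95%). Toward lower values 0 members passed (background 0.0165%) and 0 had an unadjusted p under 0.05 (background 6.09%). In the trended fit, in which the spread is drawn toward that of genes with similar signal, 2 members passed (6.25%, background 0.121%), 10 had an adjusted p under 0.15 (31.2%, background 0.808%) and 21 had an unadjusted p under 0.05 (background 5.33%), all of these toward higher values. The count of 10 was 3 to 6 without WT replicate 2, 3 or 4 or KO replicate 1, 2 or 3, 8 without WT replicate 1 and 15 without KO replicate 4. Toward lower values there were 0 at each of these thresholds, against 0.253%, 1.35% and 7.22% of all genes. Neither call of the trended fit was kept whichever array was left out, as is given with Mut and Kyat3. Below, the standard errors, 95% intervals and adjusted p-values of single genes are those of the trended fit unless the common-variance fit is named.

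**Figure D1:**
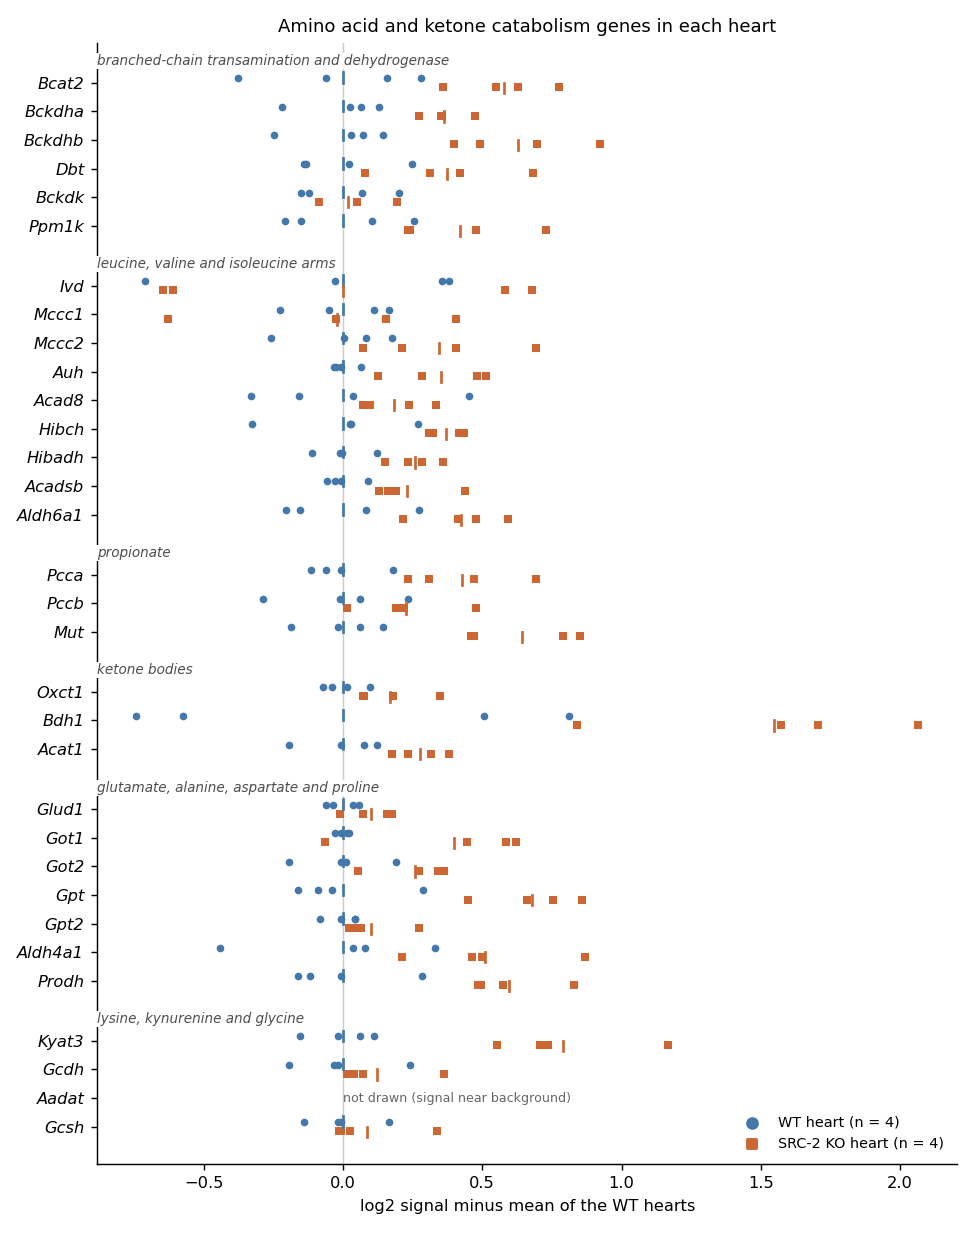
Log2 signals relative to the WT group mean (x axis) for each gene (y axis), with WT hearts as circles, SRC-2 KO hearts as squares and group means as short vertical lines, n = 4 each. For 14 genes every square lies to the right of every circle, and Ivd, Mccc1 and Bckdk have means near 0.

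At the entry to branched-chain catabolism all 6 genes had a higher mean in the SRC-2 KO hearts. Their median log2 fold change was 0.40, and Bcat2, Bckdha and Bckdhb had groups that did not overlap. Bcat2, the mitochondrial branched-chain aminotransferase, had signals of 2119, 1344, 1948 and 1673 in the WT hearts and 2990.2, 2698, 2240.5 and 2556 in the SRC-2 KO hearts (adjusted p = 0.103 for a log2 fold change of 0.58 with a standard error of 0.14). The lowest KO heart, replicate 3, was above the highest WT heart, replicate 1. Bckdha, the alpha subunit of the E1 component of the dehydrogenase, had 2716, 2290.2, 2918 and 2790.1 in the WT hearts and 3704, 3223, 3417 and 3406 in the SRC-2 KO hearts (adjusted p = 0.122 for a log2 fold change of 0.36 with a standard error of 0.09). For Bckdhb, the beta subunit of the same component, the signals were 2758, 2983, 2841 and 2276 in the WT hearts and 4372, 3795, 5122 and 3559 in the SRC-2 KO hearts. The lowest KO heart of Bckdhb, replicate 4, was above the highest WT heart, replicate 2 (adjusted p = 0.0516 for a log2 fold change of 0.63 with a standard error of 0.12). Dbt, the E2 core that transfers the acyl group, stood at a log2 fold change of 0.37 with adjusted p = 0.239 and had KO replicate 4 within the range of the WT hearts.

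For the regulators of the dehydrogenase, the groups overlapped. Bckdk, the kinase that inactivates it, had signals of 1876, 1468, 1711 and 1498 in the WT hearts and 1866, 1687, 1536 and 1536 in the SRC-2 KO hearts. The groups covered nearly the same range (log2 fold change 0.02, 95% interval −0.21 to 0.25), and the sign of this value changed when single arrays were left out. Ppm1k, the phosphatase that activates it, had 4517, 6241, 5615 and 4702 in the WT hearts and 7268, 6170.1, 8663 and 6142 in the SRC-2 KO hearts (adjusted p = 0.19 for a log2 fold change of 0.42 with a standard error of 0.13). KO replicates 2 and 4 of Ppm1k lay just below the highest WT heart, and the interval ran from 0.14 to 0.70. Whether Bckdk and Ppm1k differ from each other in their change was not tested.

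In the arms that degrade the carbon skeletons of leucine, valine and isoleucine, 8 of 9 genes had a higher mean in the KO hearts, the median log2 fold change was 0.26, and for Auh, Hibch, Hibadh and Acadsb the groups did not overlap. Of the leucine arm, Auh, which hydrates methylglutaconyl-CoA, had signals of 3623, 3601, 3854 and 3662 in the WT hearts and 5144, 4479.8, 5256 and 4017 in the SRC-2 KO hearts (adjusted p = 0.143 for a log2 fold change of 0.35 with a standard error of 0.09). The WT hearts of Auh lay within a narrow range and the lowest KO heart, replicate 4, was above it. Averaged over the 6 probesets of Auh, the log2 fold change turned to −0.05, with −1.65 for a dim probeset whose mean signals were 37.7 in the WT and 13.9 in the SRC-2 KO hearts. Ivd, isovaleryl-CoA dehydrogenase, and Mccc1 and Mccc2, the subunits of methylcrotonyl-CoA carboxylase, had log2 fold changes of 0.00, −0.02 and 0.35 with groups that overlapped. For Ivd the brightest probeset was widely spread within each genotype, 7420, 7563, 3546 and 5696 in the WT hearts and 8685, 3708, 9285 and 3801 in the SRC-2 KO hearts, and it is set beside its second probeset below.

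Of the valine arm, Hibch, which removes CoA from hydroxyisobutyryl-CoA, had 3745, 2475, 3171 and 3159 in the WT hearts and 4195, 3887, 3847 and 4141 in the SRC-2 KO hearts (adjusted p = 0.18 for a log2 fold change of 0.37 with a standard error of 0.11). The KO hearts lay closer together than the WT hearts and all above them, but by a small margin over WT replicate 1. Hibch is the only member on chromosome 1, which also carries the disrupted Ncoa2, and a part of that linkage in its value was not tested. Hibadh, the next dehydrogenase, had 13819.5, 12598, 11763 and 12669 in the WT hearts and 15460.1, 14096, 16282 and 14919 in the SRC-2 KO hearts (adjusted p = 0.234 for a log2 fold change of 0.26 with a standard error of 0.09). Acad8, isobutyryl-CoA dehydrogenase, and Aldh6a1, methylmalonate semialdehyde dehydrogenase, had log2 fold changes of 0.18 and 0.42 with groups that overlapped. Of the isoleucine arm, Acadsb, the short/branched-chain acyl-CoA dehydrogenase, had 2006, 2036, 2179 and 1967 in the WT hearts and 2774, 2337, 2289 and 2238 in the SRC-2 KO hearts (adjusted p = 0.305 for a log2 fold change of 0.23 with a standard error of 0.09). Its KO hearts were all above its WT hearts, with KO replicate 1 the highest, and its only probeset is of a kind marked for cross-hybridisation.

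The propionate genes, on which valine and isoleucine converge, all had a higher mean in the KO hearts (3 of 3, median log2 fold change 0.43), and Mut was 1 of the 2 members that passed in the trended fit. Mut, the cobalamin-dependent mutase that makes succinyl-CoA, had signals of 3260.5, 3870.3, 3664 and 4095 in the WT hearts and 6421, 5139, 6692 and 5097 in the SRC-2 KO hearts. The lowest KO heart, at 5097, was well above the highest WT heart, at 4095 (adjusted p = 0.0333 for a log2 fold change of 0.64 with a standard error of 0.11). In the common-variance fit the adjusted p of Mut was 0.312. The trended call was kept without KO replicate 2 or KO replicate 4 (adjusted p = 0.046 and 0.0118) and lost without any of the other 6 arrays (adjusted p = 0.0536 to 0.102). Pcca, the biotin-carrying alpha subunit of propionyl-CoA carboxylase, had 4633, 3924, 4073 and 3776 in the WT hearts and 6612, 5071, 5662 and 4812 in the SRC-2 KO hearts (adjusted p = 0.121 for a log2 fold change of 0.43 with a standard error of 0.11). The lowest KO heart of Pcca, replicate 4, was above the highest WT heart, replicate 1, by less than the spread of either genotype. Pccb, the beta subunit, had a log2 fold change of 0.23 with groups that overlapped.

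**Figure D2:**
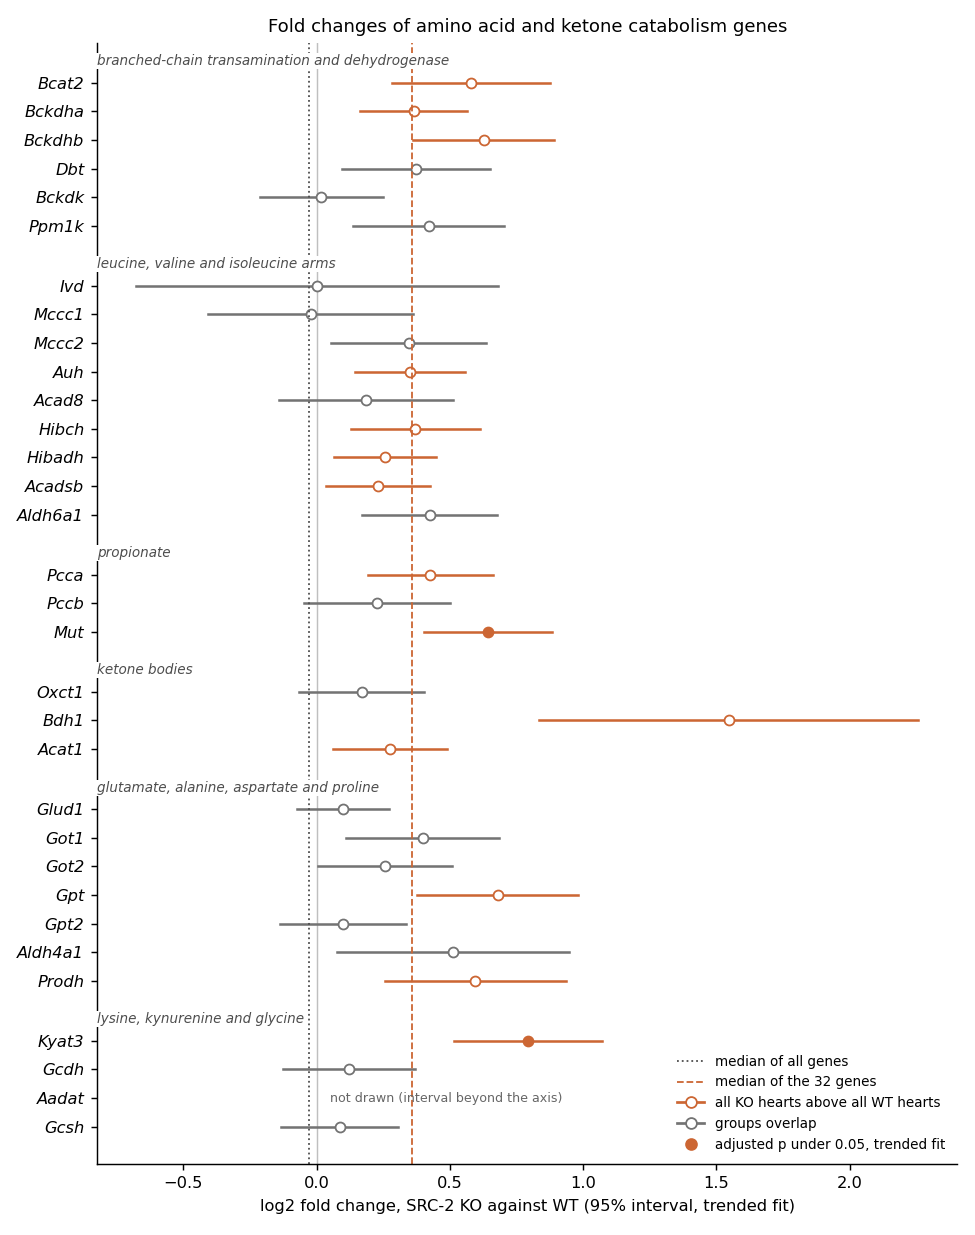
Log2 fold change of SRC-2 KO against WT (x axis) of each gene (y axis), with the 95% interval of the trended fit as a bar. Filled points are Mut and Kyat3, which passed an adjusted p of 0.05 in that fit, the dashed line is the median of the 32 genes (0.36) and the dotted line the median of all genes (−0.03).

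The 3 genes of ketone body use all had a higher mean in the KO hearts (median log2 fold change 0.28), with groups that did not overlap for Bdh1 and Acat1 and groups that overlapped for Oxct1. Bdh1, 3-hydroxybutyrate dehydrogenase, had signals of 619, 551, 1617 and 1309 in the WT hearts and 3006, 2739, 3858 and 1651 in the SRC-2 KO hearts. The hearts of each genotype differed widely, with WT replicates 1 and 2 far below WT replicates 3 and 4, and KO replicate 4, at 1651, was just above WT replicate 3, at 1617. The group signals were 1024 ± 523 in WT hearts and 2814 ± 910.0 in SRC-2 KO hearts (mean ± SD, n = 4 each), and the log2 fold change was 1.55 (95% interval 0.83 to 2.26, adjusted p = 0.0745 in the trended and 0.385 in the common-variance fit). This was the largest fold change of the 32 members, with the largest standard error (0.33) among those with a signal of 100 or more.

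Oxct1, the CoA transferase that activates acetoacetate and is the committed step of ketone oxidation, had 40768, 45831, 41701 and 43250.2 in the WT hearts and 54503, 45058, 48582 and 45139 in the SRC-2 KO hearts. KO replicates 2 and 4 lay below the highest WT heart (adjusted p = 0.565 for a log2 fold change of 0.17 with a standard error of 0.11, 95% interval −0.07 to 0.40). With quantile normalization the log2 fold change of Oxct1 was 0.0041, and those of Acat1 and Hibadh were 0.17 each. Acat1, the mitochondrial thiolase that splits acetoacetyl-CoA and also acts in the isoleucine arm, had 19892, 19239, 18174 and 15978 in the WT hearts and 22727, 21444, 23774 and 20650.2 in the SRC-2 KO hearts (adjusted p = 0.257 for a log2 fold change of 0.28 with a standard error of 0.10). Its lowest KO heart, replicate 4, was above its highest WT heart, replicate 1.

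**Figure D3:**
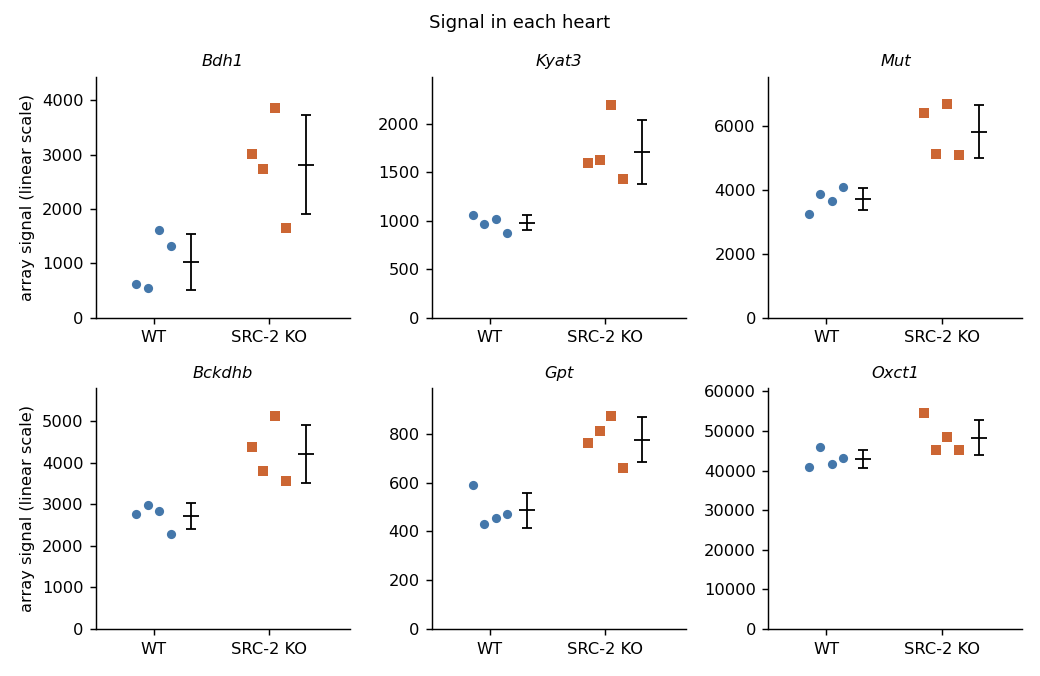
Array signal on a linear scale (y axis, from 0) in the 4 WT hearts (circles) and 4 SRC-2 KO hearts (squares), with the mean and SD beside them in black. Bdh1, Kyat3, Mut, Bckdhb and Gpt have groups that do not overlap, the margin being smallest for Bdh1 (1617 against 1651), and Oxct1 has groups that overlap.

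The genes of glutamate, alanine, aspartate and proline metabolism all had a higher mean in the KO hearts (7 of 7, median log2 fold change 0.40), and for Gpt and Prodh the groups did not overlap. Gpt, the alanine aminotransferase of the cytosol, had signals of 589, 431, 454 and 469 in the WT hearts and 761, 813, 873 and 658 in the SRC-2 KO hearts (adjusted p = 0.0666 for a log2 fold change of 0.68 with a standard error of 0.14). WT replicate 1 was the highest WT heart and KO replicate 4, the lowest KO heart, was above it. Prodh, proline dehydrogenase, had 309, 407, 333 and 299 in the WT hearts and 499, 472, 594 and 469 in the SRC-2 KO hearts (adjusted p = 0.131 for a log2 fold change of 0.60 with a standard error of 0.16). The lowest KO heart of Prodh was again replicate 4, and the highest WT heart was replicate 2. Glud1, glutamate dehydrogenase, which releases ammonium from glutamate, had 2523, 2359, 2396 and 2561 in the WT hearts and 2744, 2439.8, 2587 and 2776 in the SRC-2 KO hearts. The groups of Glud1 overlapped and the values differed little (log2 fold change 0.10, 95% interval −0.07 to 0.27).

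Got1 and Got2, the cytosolic and mitochondrial aspartate aminotransferases of the malate-aspartate shuttle, had log2 fold changes of 0.40 and 0.26. With quantile normalization Got2 had 0.081. Got1 overlapped through a single heart: KO replicate 4, at 11285, lay below all 4 WT hearts (11566 to 11983), while the other KO hearts ran from 16081 to 18169. Gpt2, the mitochondrial alanine aminotransferase, had a log2 fold change of 0.10 and Aldh4a1, which completes proline breakdown to glutamate, of 0.51, both with groups that overlapped.

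Of the 4 genes of lysine, kynurenine and glycine breakdown, all had a mean log2 signal higher in the KO hearts (median log2 fold change 0.30), and Kyat3 was the only one of them with groups that did not overlap. This median was 0.13 to 0.16 without WT replicate 3 or KO replicate 2 or 3, 0.46 to 0.48 without KO replicate 1 or 4, and 0.12 with the dim gene Aadat left out. Kyat3, which transaminates kynurenine and other amino acids, had signals of 1053, 964, 1017 and 876 in the WT hearts and 1593, 1625, 2189 and 1430.2 in the SRC-2 KO hearts. The lowest KO heart, replicate 4, was well above the highest WT heart, replicate 1 (adjusted p = 0.0252 for a log2 fold change of 0.79 with a standard error of 0.13). In the common-variance fit the adjusted p of Kyat3 was 0.294. The trended call was kept without KO replicate 1, KO replicate 3 or KO replicate 4 (adjusted p = 0.0417, 0.0425 and 0.0109) and lost without KO replicate 2 or any single WT array (adjusted p = 0.0545 to 0.0968). Gcdh, glutaryl-CoA dehydrogenase, and Gcsh, the lipoyl carrier protein of the glycine cleavage system, had log2 fold changes of 0.12 and 0.09 with groups that overlapped. Aadat, the aminoadipate aminotransferase, had signals of 3.45 to 44.3 over the 8 hearts, all under 50, so that its log2 fold change of 0.47 (95% interval −1.56 to 2.50) carries little information.

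Several members are read by more than 1 probeset, and the further probesets mostly had the direction of the brightest. The 32 members have 63 probesets, 18 members having several. Of the 31 further probesets, 25 had a log2 fold change above 0 and 6 below, for 11 every KO heart lay above every WT heart and for 0 below, and the median was 0.27. The shares of all further probesets of the array were not counted. In 22 of them the mean linear signal was 100 or more in each genotype, and the others were dimmer in 1 or both genotypes. Probesets of a gene share its RNA and are no replicates.

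Ivd was read differently by its probesets. Its second probeset had signals of 3611, 3058, 3541 and 2901 in the WT hearts and 5324, 4450.1, 6061 and 5001 in the SRC-2 KO hearts. All KO hearts were above all WT hearts with a log2 fold change of 0.67, while the brightest gave 0.00. The two-sided exact permutation p of 0.0286 is the lowest possible with 4 hearts in each genotype. Any probeset with separated groups has this p, as 11 of the 31 further probesets had, and this probeset was named after its values were seen. A further probeset each of Mccc2, Acad8 and Oxct1 also separated the genotypes, with log2 fold changes of 0.63, 0.41 and 0.28, where the brightest ones overlapped. The other further probesets of Oxct1 (0.05 and 0.12) and of Mccc2 (0.27) had groups that overlapped. Counted over any probeset, 18 members had KO hearts all above WT hearts and 0 had them all below. A gene with several probesets has more chances to separate under this rule, and the share of all genes that meet it was not counted. All 3 probesets of Mut separated the genotypes, the dimmest of them with signals of 49.5, 62.5, 37.8 and 24.7 in the WT hearts and 185, 180.1, 186 and 148 in the SRC-2 KO hearts, where the WT hearts lie near background and the log2 fold change of 2.08 is uncertain, as is then the 0.98 that the mean of the 3 probesets gave. Both probesets of Bdh1 separated them too, with log2 fold changes of 1.55 and 1.48, and so did the 3 of Acat1, with 0.28, 0.13 and 0.25. For Gpt2 the 4 probesets did not point 1 way, running from −0.19 to 0.45, all with groups that overlapped.

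**Figure D4:**
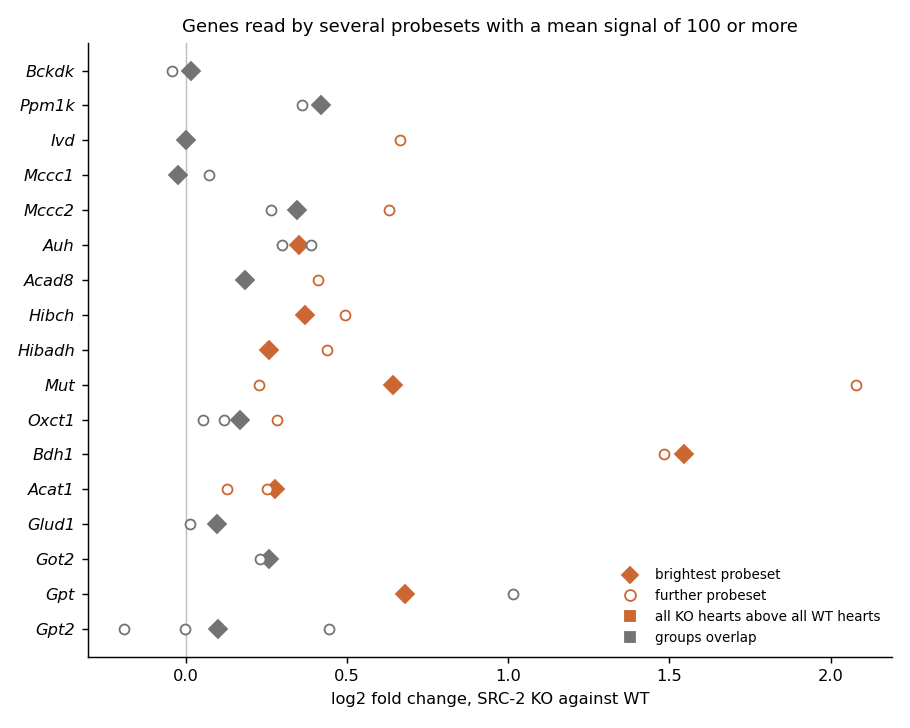
Log2 fold change of SRC-2 KO against WT (x axis) for each probeset with a mean signal of 100 or more over the 8 hearts, by gene (y axis), for genes with several such probesets. Diamonds are the brightest probesets and circles the others, in orange where all KO hearts lay above all WT hearts. The probesets of Ivd (0.00 and 0.67) differ, and those of Acat1 and Hibadh all lie to the right of 0.

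The KO hearts differed from each other in how far the members were shifted. Averaged over the 32 members, log2 signals relative to the WT mean were 0.05, −0.06, 0.00 and 0.01 in the WT hearts and 0.40, 0.35, 0.54 and 0.20 in the SRC-2 KO hearts. Every KO heart was above every WT heart, with KO replicate 4 the nearest to them. KO replicate 4 was the lowest of the KO hearts for 17 of the 32 members (53.1%) and for 33.8% of the genes with a signal of 1000 or more, and KO replicate 3 was the highest for 17 (53.1%, against 27.3%). Among the adipocyte markers, 6 of which were measured, the mean log2 signal relative to WT was 1.59 in KO replicate 4 and −0.02 to 0.56 in the other KO hearts. In the fibroblast markers KO replicate 4 was at −0.09 and the other KO hearts at −0.96 to −0.61. The part of these markers in the values of KO replicate 4 was not tested.

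Relative to the mean of the 10 ventricular myocyte markers in the same heart, the member means overlapped between genotypes. The differences of mean log2 signal were −0.02, −0.24, −0.02 and 0.27 in the WT hearts and 0.04, 0.25, 0.25 and 0.19 in the KO hearts. The highest value was then that of a WT heart, replicate 4, in which the ventricular markers were lowest (−0.26 relative to the WT mean), and the KO mean of 0.18 was within the WT SD of 0.21. In the WT hearts the marker Myl2 had signals of 72768, 83641, 71771 and 53807. The dimmer marker Ryr2 had 17345, 19154, 21524 and 18595, so it was not lowest in replicate 4. The largest signal on any array was 124739, and whether the brightest signals still follow the amount of RNA was not tested. Of the array's controls for RNA integrity, the 3′ minus 5′ log2 signal of Gapdh ran from −0.12 to −0.00 in WT hearts and from −0.17 to −0.06 in KO hearts, and that of beta-actin from 1.30 to 1.38 and from 1.33 to 1.49.

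**Figure D5:**
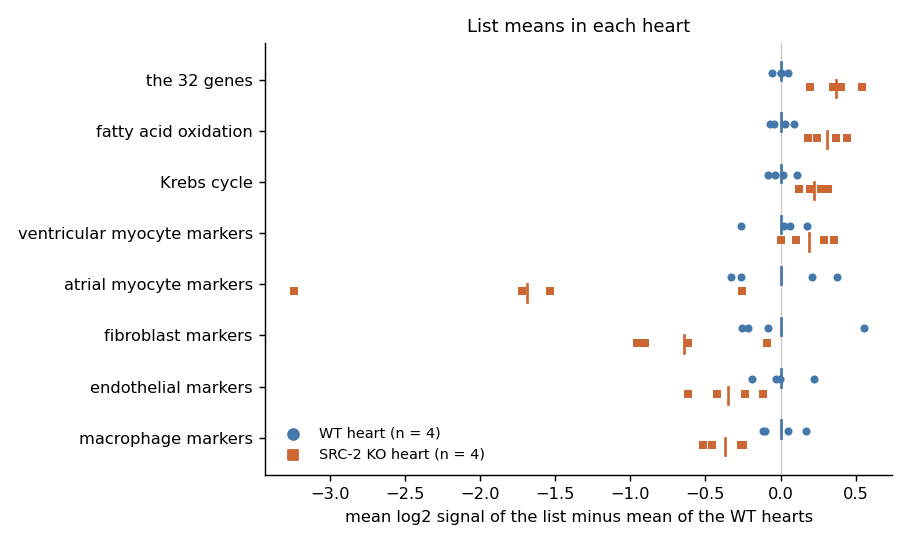
Mean log2 signal of each gene list minus its mean in the WT hearts (x axis) in 4 WT hearts (circles) and 4 SRC-2 KO hearts (squares), with group means as vertical lines. For the 32 genes the KO hearts sit at 0.20 to 0.54 and the WT hearts at −0.06 to 0.05. The ventricular marker list has a higher mean in KO hearts and the atrial, fibroblast, endothelial and macrophage lists have lower means. Of these marker lists, only that of macrophages has groups that do not overlap.

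The members were set beside the other mitochondrial oxidation genes of the same hearts. Of 18 fatty acid oxidation genes, 17 had a log2 fold change above 0, 15 had KO hearts all above WT hearts and the median was 0.35. Of 17 Krebs cycle genes, 17 were above 0, 7 had groups that did not overlap and the median was 0.24, or 0.12 with quantile normalization. KO hearts lay all above WT hearts for 3.12% of all genes and for 7.79% of genes with a signal of 1000 or more. The medians of the members (0.36) and of both of these lists in the deposited scaling lay above that of genes with a signal of 1000 or more (0.05). Nearly all genes of both lists, and many members, were far brighter than 1000, and no reference matched to their brightness was taken. No difference between the lists was tested. By qPCR normalised to ribosomal RNA, the study reports several fatty acid and Krebs cycle genes as lower in KO hearts, the opposite direction. Its panels include Acadl, Idh2 and Fh1, which on these arrays had log2 fold changes of 0.18, 0.30 and 0.12. The cause of this difference was not tested.

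Other genes that serve the same pathways, 58 measured of 67 listed, gave a lower median of 0.14, with 38 above 0 and 20 below, 12 with KO hearts all above and 2 with KO hearts all below the WT hearts. Of all genes 46.9% were above 0, 3.12% had KO hearts all above and 3.72% all below. Of these 58, 7 are also in the fatty acid oxidation or Krebs lists, and without them the median was 0.13 over 51 genes. In the trended fit 1 of the 58 passed toward higher and 0 toward lower values (background 0.121% and 0.253% of genes). In the common-variance fit 0 passed (background 0.0055% and 0.0165%), with 8 higher and 1 lower at an unadjusted p under 0.05 (background 3.95% and 6.09%). The gene that passed was Slc25a22, a mitochondrial glutamate carrier, with signals of 614, 547, 566 and 619 in the WT hearts and 1261, 720.3, 1294 and 1421 in the SRC-2 KO hearts (adjusted p = 0.0482 in the trended and 0.334 in the common-variance fit for a log2 fold change of 0.96 with a trended standard error of 0.18). Every KO heart was above the WT hearts, but KO replicate 2 by far less than the others. Its trended call was kept without KO replicate 2 or KO replicate 4 (adjusted p = 0.00374 and 0.0457) and lost without any of the other 6 arrays (adjusted p = 0.0969 to 0.145) and with quantile normalization (adjusted p = 0.0525).

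Among the other branched-chain genes, 13 measured, 9 had a log2 fold change above 0 and 0 passed. Those with the smallest p were Hsd17b10, a dehydrogenase of the isoleucine arm (log2 fold change 0.40), and the beta-oxidation enzymes Acaa2 (0.37) and Hadha (0.36), with KO hearts all above WT hearts for each. The 4 genes below 0 were Slc7a5 (−1.46), Bcat1 (−0.78), Slc25a44 (−0.35) and Slc43a1 (−0.29). For Slc7a5 all KO hearts lay below all WT hearts, with KO replicate 1 at a signal of 13.7. KO replicate 2 of Slc7a5, at 198, was just below WT replicate 4, at 201. Bcat1 and Slc43a1 were dim. Bcat1 had 88.8 to 110 in the WT hearts and 42.7, 28.9, 91.1 and 112 in the SRC-2 KO hearts, and Slc43a1 had 45.0 to 133 over the 8 hearts. Of the 10 propionate and cobalamin genes 8 were above 0 and 0 passed, with the smallest p for Mmadhc (log2 fold change 0.33) and Mmachc (0.22), which process cobalamin inside the cell, and Mcee (0.28), the epimerase that acts just before Mut.

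The ketone list held 6 other measured genes, 2 of them above 0 and 0 passing. Slc16a1, a monocarboxylate carrier that moves lactate and ketone bodies, had a log2 fold change of 0.17, Bdh2 had −0.49, and Oxct2a, a relative of Oxct1, had −0.99 at signals near background. Among 16 other glutamate and proline genes, 12 were above 0, and beside Slc25a22 the smallest p were those of Slc25a11, the oxoglutarate carrier of the malate-aspartate shuttle (0.36), and Aldh18a1, which starts proline synthesis (−0.54). The 14 other genes of lysine, kynurenine and glycine metabolism had 8 above 0 and 0 passing, with the smallest p for Dld, the E3 component that the branched-chain ketoacid dehydrogenase shares with related complexes (0.28), Aldh7a1 of lysine breakdown (0.31) and Aass, which starts it (−1.91), the last at signals near background.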

How the data were processed

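The authors deposited 1 value for each of 45101 probesets on each of 8 arrays. Affymetrix Expression Console, Partek and RMA are named in the submitters' processing notes, but the deposited values are intensities on a linear scale (0.219 to 124739), the arrays having been brought to a common mean that leaves out the outer 2% of probesets on each side. Log2 of the deposited intensities was therefore taken, in place of the log2 RMA values that had been assumed, with no further normalization. Median signals were 75.6 to 87.3, and precision is limited by how many arrays there are.

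Of 35890 probesets listed in the annotation used, 34958 have 1 gene symbol and were used, and the one with the highest mean log2 signal stood for each of 18194 genes (18146 with a current symbol). KO was compared with WT in limma 3.58.1 under R 4.3.3 by lmFit and eBayes, without a trend (the common-variance fit, the main one) and with a trend (the trended fit), with two-sided p-values and Benjamini-Hochberg adjustment over all genes at 0.05. For single further probesets an exact permutation test over the arrays was used (70 regroupings). The scripts were tested on simulated data. The alternatives were a random variance model as in the methods, array weights, averaging all probesets of a gene, dropping cross-hybridising probesets, the replicate number as a block, floors and filters on low signals, median centring, quantile normalization and leaving out each array. As cross-hybridising, only probesets with names ending in _x_at were dropped. Those ending in _s_at, which stand for Gpt, Gpt2, Hibch and Hibadh, were kept. The highest mean linear signal per gene, and the dim filter and quantile normalization joined to the trended fit, were added after the data were seen.

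The 32 members and all lists were chosen with earlier results of these data known. Named were Ncoa2, all members, with the values of every heart where a member passed in either fit, had groups that did not overlap, or is Bcat2, Bckdk, Ppm1k, Oxct1, Bdh1 or Glud1, and, of each list of other pathway genes, those that passed and the 3 with the smallest p. Values of Ivd, Got1 and Aadat, and of single further probesets, were added after they were seen. Of the marker lists, those for smooth muscle (6 of 8 lower in KO hearts, median log2 fold change −0.22), skeletal muscle (6 of 8 lower, −0.64, 5 of 8 under a signal of 50 in both genotypes) and blood (4 of 7 higher, 0.15, 3 of 7 under 50) are given here, as is that for adipocytes (5 of 6 higher, 0.59). Promoters were searched in Python 3.11.15, and figures were drawn with matplotlib 3.10.9.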

Additional observations from a re-analysis of the deposited data

Results flagged for a closer look

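Of 80 groups of 4 hearts, 3 had a heart far from the other 3, and chance gives about 1 in 20. In the SRC-2 KO hearts, Gpt2 had a signal of 834.4 in KO replicate 3, against 702 to 723 in the other KO hearts. Gcdh had 1805 in KO replicate 4, against 1416 to 1476. Gcsh had 6718 in KO replicate 4, against 5257 to 5406. Leaving out KO replicate 4 gave log2 fold changes of 0.04 for Gcdh and 0.00 for Gcsh, in place of 0.12 and 0.09, and leaving out KO replicate 3 gave 0.04 for Gpt2 in place of 0.10. None of these genes passed an adjusted p of 0.05 in any fit that was run.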

How the results depend on the processing

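Members with a log2 fold change above 0 numbered 29 to 32 and those with KO hearts all above WT hearts 11 to 19 under all alternatives, and their median was 0.28 to 0.44, the highest with median centring (0.44), which moves the median of all genes from −0.03 to 0.06. Toward higher and lower values, 1 and 3 genes passed in the common-variance fit, and 22 and 46 in the trended fit, 0 and 1 with the mean of all probesets, 0 higher with signals under 50 set to 50 or with quantile normalization, 12 lower with dim genes left out, 27 and 53 with that filter and a trend, and 16 and 29 with quantile normalization and a trend. Single arrays left out gave 0 to 104 higher and 1 to 216 lower genes over both fits, the most in the trended fit without KO replicate 4.

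Members that passed numbered 0 in every common-variance setting, and among the trended fits 2 with all arrays, 4 with dim genes left out (Bckdhb, Mut, Gpt and Kyat3), 2 with quantile normalization and, without single arrays, 0 to 8. There were 0 without any single WT array, 1 without KO replicate 1 or 3 (Kyat3), 1 without KO replicate 2 (Mut) and 8 without KO replicate 4 (Bckdhb, Auh, Pcca, Mut, Bdh1, Got1, Gpt and Kyat3). Replicate numbers do not pair the arrays, same-numbered WT and KO arrays having correlations of their deviations of −0.08 to 0.11. With the replicate number as a block, 0 genes passed either way in the common-variance fit, Ncoa2 included (−2.95, adjusted p = 0.254), and 26 and 51 in the trended fit, 2 of them members (Bckdhb and Kyat3). Of the 4 same-numbered pairs, not every array correlated best with its own number.

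The mean of all probesets, dim ones included, gave Ncoa2 −1.30 (adjusted p = 0.478) and turned the values near 0 of Bckdk (−0.011) and Mccc1 (0.024) as well as those of Auh (−0.049) and Dld (−0.25). Median centring gave the leucine, valine and isoleucine arms a median of 0.34, the ketone genes 0.36, Mccc1 0.064 and the other genes of the pathways 0.23. Quantile normalization, with and without a trend, gave the ketone genes 0.17, the fatty acid oxidation genes 0.24, the Krebs cycle genes 0.12 and Ivd −0.056. Without single arrays the glutamate, alanine, aspartate and proline genes had a median of 0.32 to 0.55, the highest without KO replicate 4, Bckdk ran from −0.041 to 0.086, Mccc1 from −0.17 to 0.18, Ivd from −0.24 to 0.22 and Aadat from −0.16 to 1.06. The causes were not tested.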
